A study of Mus musculus with 8 samples.

Results

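The interleukin-1 system was examined through 10 genes that encode its ligands, its receptors and the inflammasome that matures them (Il1a, Il1b, Il1rn, Il1r1, Il1r2, Il1rap, Il18, Casp1, Nlrp3 and Pycard). They were taken by gene symbol, with earlier results of these data known, and all 10 were among the 19301 genes of the deposited table. The cells were primary tendon stem cells (TSCs), grown out of collagenase-digested mouse patellar tendon (C57BL/6J mice). They were kept for 4 days in low glucose DMEM with DMSO, the vehicle (LG), or in high fat, high glucose medium (HFHG), which is high glucose DMEM with palmitic acid, a saturated fatty acid. Each group had 4 libraries, which the study's methods call biological replicates. Whether they came from separate mice is not given in the sources used here, so p-values measure the spread between these libraries. mRNA libraries were made with a stranded kit. The comparison asked which transcripts changed when glucose and fatty acid were raised together, so the effects of glucose and of palmitic acid cannot be told apart.

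Interleukin-1 alpha and interleukin-1 beta are inflammatory cytokines that bind the same receptor, IL1R1, which then recruits the accessory protein IL1RAP and the adaptor MYD88 and switches on NF-kB and MAP kinase signalling. The pathway carries its own brakes: the receptor antagonist encoded by Il1rn occupies IL1R1 without signalling, and IL1R2 is a decoy that binds ligand but has no signalling tail. Interleukin-1 beta and interleukin-18 are made as inactive precursors and cut by caspase-1, which is activated on an inflammasome built from the sensor NLRP3 and the adaptor ASC (Pycard). Interleukin-1 alpha does not need that cut to be active. In tendon fibroblasts interleukin-1 is known as an inducer of matrix proteases and chemokines and as a cytokine of the senescence-associated secretory phenotype.

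The ligand genes Il1a and Il1b lie next to each other on mouse chromosome 2 and both point the same way, and Il1rn lies on the same chromosome. Their promoter windows (250 bases before to 50 after an annotated transcription start, RefSeq, GRCm38) are shown because Il1a and Il1b rose together while Il1rn passed no test on the deposited scale. The windows are chr2:129309923-129310222 on the minus strand for Il1a, chr2:129371090-129371389 on the minus strand for Il1b and chr2:24336610-24336909 on the plus strand for Il1rn, which is the most upstream of the 3 windows listed for that gene. Capitals mark matches on either strand to the TATA motif TATAAA or the AP-1 motif TGANTCA.
Il1a: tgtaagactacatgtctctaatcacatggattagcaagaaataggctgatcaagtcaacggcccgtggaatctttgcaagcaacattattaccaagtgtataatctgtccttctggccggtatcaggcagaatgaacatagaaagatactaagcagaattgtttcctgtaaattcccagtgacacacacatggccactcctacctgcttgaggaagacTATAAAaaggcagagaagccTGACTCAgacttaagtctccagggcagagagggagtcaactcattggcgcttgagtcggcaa
Il1b: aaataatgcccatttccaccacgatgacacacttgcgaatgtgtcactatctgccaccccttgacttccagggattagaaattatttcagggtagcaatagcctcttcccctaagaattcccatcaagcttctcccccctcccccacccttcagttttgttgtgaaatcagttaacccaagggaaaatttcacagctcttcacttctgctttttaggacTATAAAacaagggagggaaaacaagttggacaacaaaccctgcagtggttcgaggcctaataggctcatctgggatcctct
Il1rn: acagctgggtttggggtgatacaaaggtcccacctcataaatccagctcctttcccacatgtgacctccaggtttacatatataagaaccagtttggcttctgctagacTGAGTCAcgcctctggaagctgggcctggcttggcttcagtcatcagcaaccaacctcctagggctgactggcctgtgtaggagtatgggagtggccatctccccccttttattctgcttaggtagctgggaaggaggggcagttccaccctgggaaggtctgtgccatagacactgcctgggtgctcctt
Il1a and Il1b each had TATAAA, beginning 32 and 31 bases before the start, a motif held by 13.6% of the 32851 mouse promoter windows of this length. Il1a had TGACTCA beginning 12 bases before its start and Il1rn had TGAGTCA beginning 141 bases before it, and 7.81% of all windows held an AP-1 match. The C/EBP motif TTGCNNAA (10.8% of windows), the E-box CACGTG (7.15%) and the kappaB consensus (4.51%) were also searched on both strands and had no match in these 3 windows. Among the Il1rn windows not shown, 1 held TTTATA, the TATA motif on the other strand, at base 15 counted from its start. Values pooled per gene do not tell which Il1rn start was used. A match is a description of letters and not of a bound site.

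The 8 libraries had totals of 34308108 to 37362725 fragments each, recovered from the whole-number steps in the FPKM values (fragments mapped to a gene, scaled to its length in kilobases and to the library total). Of each total, 99.82% to 99.85% lay on the listed genes, and the number of all mapped fragments is not known here. Genes with at least 0.5 FPKM in at least 4 libraries were tested with limma on log2(FPKM + 0.1), and p-values were adjusted by Benjamini-Hochberg over all 11710 tested genes. With this added constant, the fold change of a gene with low FPKM is understated. The component that separated the 2 media held 81.0% of the variance. LG replicate 4 stood apart on the next one (4.18%), with a score of 13.8 against -7.93 to 2.49 in the other libraries. Replicates of a group differed by 3.41 to 11.2 times Poisson noise, so no library was a copy of another.

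Of the 10 genes, 9 were tested. Il1a, Il1b, Il1r1, Il1rap and Il18 were higher in HFHG at an adjusted p-value below 0.05, Nlrp3 was lower, and Il1rn, Casp1 and Pycard did not pass. Among all tested genes 34.0% were called higher and 30.8% lower by the same rule, and 64.8% in either direction, so 6 called of 9 was close to the background. At the fold threshold of the study's methods (over 2-fold with an unadjusted p-value below 0.05), Il1a and Il1b were upregulated and no member was downregulated, where 3.68% and 1.65% of tested genes were. FPKM did not overlap between the groups in 5 of the 9 (4 higher and 1 lower), against 59.2% of all tested genes (31.1% higher and 28.1% lower). The median log2 fold change of the 9 was 0.36, and that of all tested genes was 0.02.

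**Figure D1:**
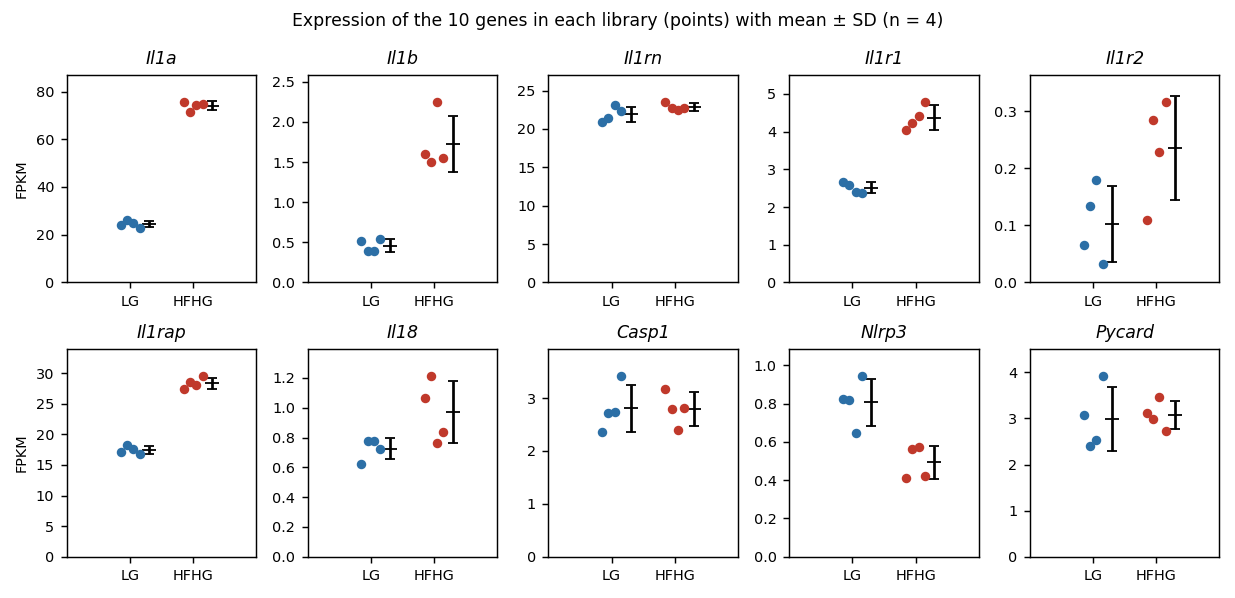
Expression (vertical axis, FPKM from 0) of each of the 10 genes in the 4 LG (blue) and 4 HFHG (red) libraries, 1 point per library, left to right from replicate 1 to 4, with bars for the mean ± SD (n = 4). The HFHG points of Il1a (71.5 to 75.8 FPKM) lie far above the LG points (22.9 to 26.3), while the points of Il1rn, Casp1 and Pycard overlap.

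Il1a (chromosome 2, 129299610 to 129309972, GRCm38) had the highest FPKM of the 10 genes in both groups. The order against Il1rap rests on gene length, recovered as 11006 bases for Il1rap, whose longest GENCODE M21 transcript has 4520. In reads Il1rap was above Il1a, with 45298 against 21254 in HFHG and 27153 against 6851 in LG. The expression of Il1a was 75.8, 71.5, 74.2 and 74.9 FPKM in HFHG replicates 1 to 4 and 24.0, 26.3, 24.7 and 22.9 FPKM in LG replicates 1 to 4. The groups stood well apart, and the spread within each was small. The means were 74.1 ± 1.86 and 24.5 ± 1.41 FPKM (SD, n = 4 each), 3.02 times as high in HFHG, and the log2 fold change was 1.59 (SE 0.0401, limma adjusted p = 4.75e-12). Between 1611 and 5587 reads per library stood behind these values. The log2 fold change stayed between 1.56 and 1.65 over the 18 other settings and left-out libraries, all past the threshold.

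Il1b (chromosome 2, 129364570 to 129371139) encodes the ligand that needs caspase-1. It was a low gene, at 1.60, 1.50, 2.25 and 1.55 FPKM in HFHG and 0.516, 0.386, 0.395 and 0.539 FPKM in LG. These values rested on 81, 72, 110 and 77 reads in HFHG and on 24, 19, 19 and 26 reads in LG. Each HFHG library was above each LG library, and HFHG replicate 3 was the highest of its group. The log2 fold change was 1.70 (SE 0.151, adjusted p = 6.26e-07 by limma), or 1.57 without HFHG replicate 3 (adjusted p = 1.79e-06). The fold depended on the pseudocount because the gene was low, at 0.90 with a pseudocount of 1 and 1.88 with 0.01. In reads, HFHG held 340 and LG 88 over their 4 libraries. Il1a thus exceeded Il1b in all 8 libraries, with group means of 74.1 against 1.73 FPKM in HFHG and 24.5 against 0.459 FPKM in LG.

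Il1rn (chromosome 2, 24336853 to 24351494), the receptor antagonist, had 23.5, 22.7, 22.4 and 22.7 FPKM in HFHG and 20.9, 21.4, 23.1 and 22.3 FPKM in LG. The groups overlapped. The log2 fold change was 0.06, with a 95% interval of -0.02 to 0.14 (SE 0.0377, adjusted p = 0.171 by limma). With FPKM rescaled to the same sum in every library it passed, at 0.12 (adjusted p = 0.0124), so whether this small difference counts as a change depended on the scaling. The FPKM of a gene pools its transcripts, so secreted and intracellular forms of the antagonist were not separated.

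The order of FPKM differed between the media, and between genes it rests on the gene lengths used. In LG, Il1a and Il1rn were neighbours whose ranges overlapped (22.9 to 26.3 and 20.9 to 23.1 FPKM). In HFHG, Il1a was at 74.1 FPKM and Il1rn at 22.9, with no overlap, and Il1rap lay between them. Without an added constant, the ratio of antagonist to Il1b within a library does not depend on the scaling of that library as a whole. Il1rn over Il1b, in FPKM, was 14.7, 15.1, 9.96 and 14.6 in HFHG and 40.6, 55.4, 58.3 and 41.4 in LG. The mean log2 ratio, with 0.1 added to both values, was 3.67 ± 0.274 in HFHG and 5.31 ± 0.230 in LG (SD, n = 4 each), a difference of -1.64. The exact two-sided permutation test gave p = 0.0286, the smallest that 4 libraries against 4 allow, and 0.0857 after Benjamini-Hochberg adjustment over the 3 ratios compared. The difference did not pass after adjustment, although the ratio was lower in 4 of 4 HFHG libraries than in any LG library. With 3 ratios, 1 that alone reaches the smallest p-value cannot pass after this adjustment, however large its difference. Not passing therefore says nothing about the size of the difference. The size of the difference depended on the pseudocount, at -0.84 with 1 and -1.82 with 0.01, and was -1.45 with quantile normalization.

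**Figure D2:**
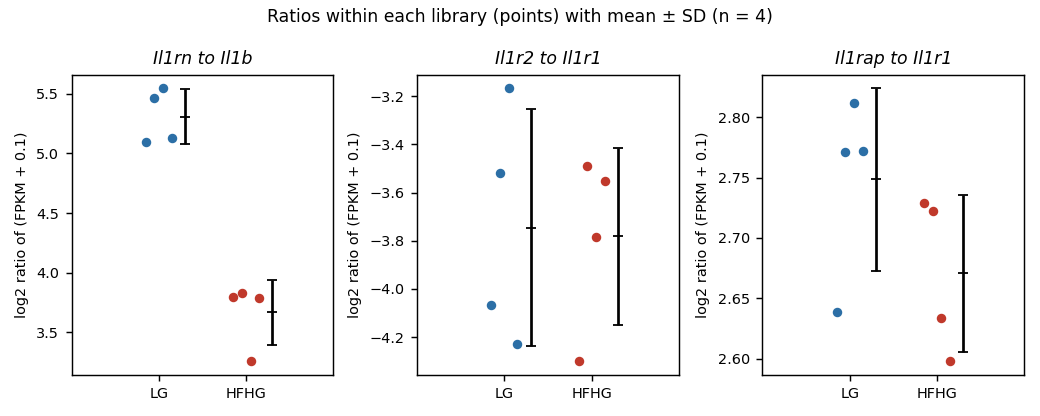
The log2 ratio of FPKM + 0.1 within each library (vertical axis, not starting at 0) for Il1rn to Il1b, Il1r2 to Il1r1 and Il1rap to Il1r1, in LG (blue) and HFHG (red), with the mean ± SD (n = 4). The groups are apart for Il1rn to Il1b (means 5.31 and 3.67) and overlap in the other two panels.

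Both chains of the signalling receptor rose. Il1r1 (chromosome 1, 40225080 to 40317257), which binds the ligand, had 4.04, 4.23, 4.43 and 4.79 FPKM in HFHG and 2.67, 2.58, 2.41 and 2.37 FPKM in LG. Each HFHG library was higher than each LG library. The means of 4.37 ± 0.323 and 2.51 ± 0.145 FPKM (SD, n = 4 each) differed by 0.78 on the log2 scale (SE 0.0732, limma adjusted p = 1.10e-06).

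Il1rap (chromosome 16, 26581704 to 26730117), the accessory chain that the receptors for interleukin-33 and interleukin-36 also use, had 27.3, 28.5, 28.0 and 29.5 FPKM in HFHG. In LG it had 17.2, 18.2, 17.5 and 16.8 FPKM, below every HFHG value. Its log2 fold change was 0.70 (SE 0.0377, adjusted p = 5.23e-09 by limma). The table gives 1 value per gene, so membrane-bound and soluble forms were not examined separately. The log2 ratio of Il1rap to Il1r1 was 2.67 ± 0.0651 in HFHG and 2.75 ± 0.0756 in LG (SD, n = 4 each). The level of this ratio depends on the length given to Il1rap. The ranges overlapped (p = 0.171, exact two-sided permutation test, adjusted p = 0.257), and the difference of -0.08 turned to 0.058 with a pseudocount of 1 and to 0.024 with quantile normalization.

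Il1r2 (chromosome 1, 40074079 to 40125231), the decoy receptor, was below the filter on low values. Its FPKM was 0.110, 0.285, 0.228 and 0.317 in HFHG and 0.0654, 0.134, 0.179 and 0.0315 in LG, from 11, 27, 22 and 31 reads and from 6, 13, 17 and 3 reads. HFHG replicate 1 fell among the LG values (p = 0.0857, exact two-sided permutation test, n = 4 each). Summed over libraries the HFHG group held 91 reads and the LG group 39, a rate 2.27 times as high with a 95% exact interval of 1.55 to 3.40 that covers counting error only. Fitted by limma without the filter, its log2 fold change was 0.74 (adjusted p = 0.0609). The decoy was far below Il1r1 in every library, at 0.0133 to 0.0744 of its FPKM. The log2 ratio was -3.78 ± 0.367 in HFHG and -3.75 ± 0.491 in LG (SD, n = 4 each, exact permutation p = 0.886). With so few reads the difference of the ratio took either sign, from -0.45 with a pseudocount of 1 (exact permutation p = 0.0286) to 0.46 with 0.01 (p = 0.486), and no order of the media can be read from it.

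Il1r2 and Il1r1 belong to a cluster of 6 receptor genes of the interleukin-1 family on chromosome 1, which spans 467 kb. In their order along the chromosome, HFHG and LG means were 0.235 and 0.103 FPKM for Il1r2, 4.37 and 2.51 for Il1r1, 2.16 and 2.22 for Il1rl2 (interleukin-36 receptor), 125 and 101 for Il1rl1 (interleukin-33 receptor), 0.0248 and 0.0122 for Il18r1 and 1.60 and 1.17 for Il18rap. Neighbours therefore differed widely in level. Il1r1, Il1rl1 (log2 fold change 0.31, adjusted p = 3.23e-07 by limma) and Il18rap (0.41, adjusted p = 0.00648) rose. Il1rl2 was at -0.05 (adjusted p = 0.724). Il18r1, the ligand-binding chain for interleukin-18, had 17 reads in all of HFHG and 8 in all of LG.

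**Figure D3:**
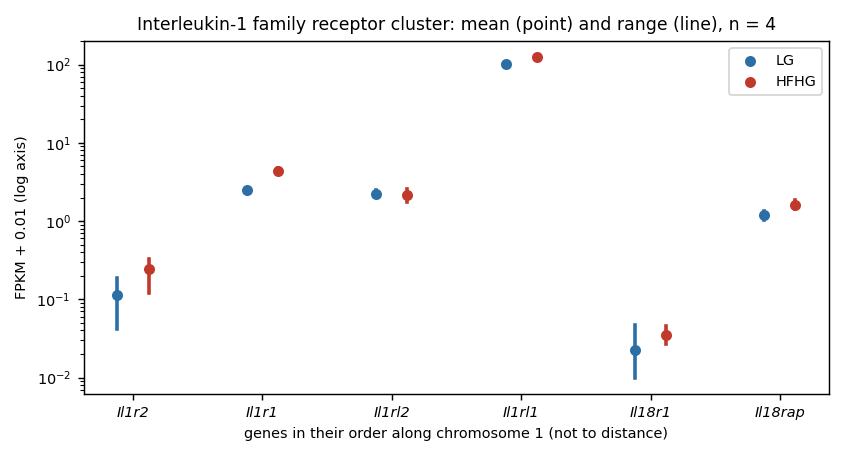
Mean (point) and range (line, n = 4) of FPKM + 0.01 on a log axis for the 6 receptor genes in their order along chromosome 1, LG in blue and HFHG in red, with distances not drawn. The means of Il1rl1 are 101 FPKM in LG and 125 FPKM in HFHG, and every value of Il18r1 beside it is below 0.04 FPKM before 0.01 is added.

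The inflammasome genes were all low and did not move together. Nlrp3 (chromosome 11, 59541568 to 59566956), the sensor, had 0.414, 0.562, 0.573 and 0.423 FPKM in HFHG and 0.822, 0.818, 0.644 and 0.944 FPKM in LG. Every HFHG value was below every LG value, from 63 to 84 reads in HFHG and 93 to 137 in LG. The log2 fold change was -0.61 (SE 0.152, adjusted p = 0.00331 by limma), and it remained past the threshold in all 17 other settings in which the gene was tested, from -0.81 with quantile normalization to -0.27 with a pseudocount of 1.

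Pycard (chromosome 7, 127989708 to 127993867), the adaptor, had 3.12, 2.99, 3.47 and 2.73 FPKM in HFHG and 3.09, 2.41, 2.52 and 3.92 FPKM in LG. Casp1 (chromosome 9, 5298517 to 5307265), the protease, had 3.17, 2.80, 2.39 and 2.80 FPKM in HFHG and 2.35, 2.71, 2.74 and 3.42 FPKM in LG. For both genes the groups overlapped, and LG replicate 4 held the highest value of all 8 libraries. Their log2 fold changes were 0.06 (95% interval -0.23 to 0.35, adjusted p = 0.693 by limma) and -0.0023 (95% interval -0.25 to 0.24, adjusted p = 0.987). Without LG replicate 4 they were 0.20 (adjusted p = 0.115) and 0.09 (adjusted p = 0.433). A change of either gene was not distinguishable from 0, and the intervals bound how large one could be.

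Il18 (chromosome 9, 50554827 to 50581840), the other cytokine cut by caspase-1, had 1.07, 1.21, 0.766 and 0.839 FPKM in HFHG and 0.625, 0.777, 0.779 and 0.724 FPKM in LG. HFHG replicates 1 and 2 were high, replicate 3 lay among the LG values, and the groups overlapped (exact two-sided permutation p = 0.0857). Its log2 fold change of 0.36 (SE 0.147) passed narrowly, with an adjusted p-value of 0.0472 by limma. The adjusted p-value ran from 0.0188 to 0.285 over 17 other settings and left-out libraries and was past the threshold in 6 of them. It was 0.151 without HFHG replicate 2, 0.118 without HFHG replicate 1 and 0.120 without LG replicate 1. Only 35 to 70 reads per library supported these values.

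**Figure D4:**
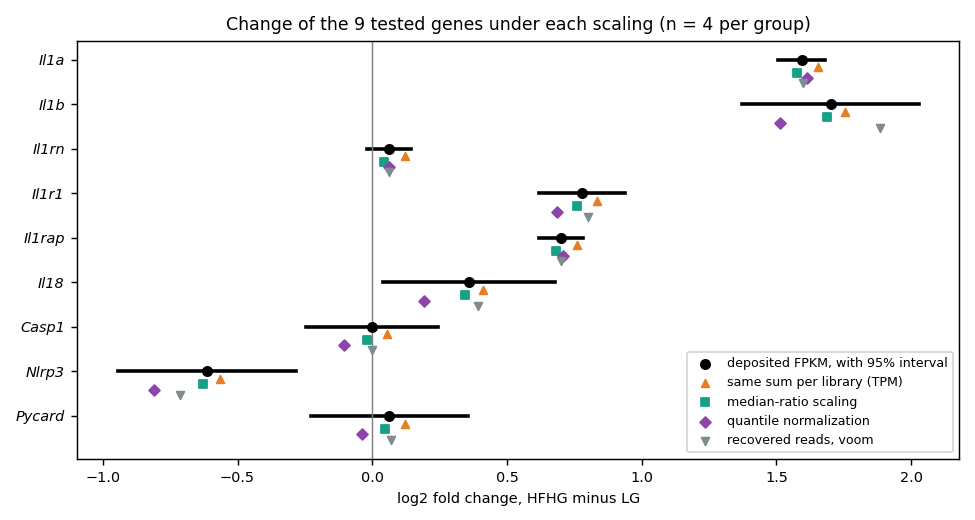
Log2 fold change, HFHG minus LG (horizontal axis), of the 9 tested genes on the deposited FPKM (black, with 95% interval) and under 4 other treatments of the values (colours), n = 4 per group. Il1a, Il1b, Il1r1 and Il1rap lie to the right of 0 and Nlrp3 to the left under all 5, and Casp1 and Pycard change sides.

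Where the authors' counting assigned reads without regard to strand, genes on the opposite strand could add to a value. Il1a shares 222 exon bases with Gm14023, Il1rap 552 with Gm20319, Pycard 485 with Gm45205 and Il1b 25 with Il1bos, all on the opposite strand in GENCODE M21. The kit kept strand information, and the setting used in counting is not given in the sources used here.

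The other genes of the pathway were described from lists chosen with earlier results of these data known, and a list's counts are given beside the 34.0% higher and 30.8% lower over all tested genes. Of 14 other ligands, receptors and binding proteins of the family, 4 were tested, of which 2 rose and 1 fell. The gene that fell was Il33, an alarmin, at 0.397 ± 0.170 FPKM in HFHG and 2.15 ± 0.144 in LG (SD, n = 4 each), and its log2 fold change was -2.23 (limma adjusted p = 3.81e-07). The interleukin-36 ligands Il36a, Il36b and Il36g stayed below 0.5 FPKM in all libraries, and so did Il1f10, Il18bp and the inhibitory receptor Sigirr.

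All 21 genes of the receptor's signalling complex and kinases were tested, and they split, with 7 higher and 8 lower and a median log2 fold change of -0.05. The largest changes were those of Map3k7 (0.58, adjusted p = 5.84e-08 by limma), which encodes the kinase TAK1, and of the ubiquitin ligases Peli2 (0.57) and Peli3 (0.54). Irak3, an inhibitory member of the IRAK family, had 0.35 (adjusted p = 8.30e-06), and Irak1 (-0.32), Irak2 (-0.46), Traf6 (-0.20) and the adaptor Myd88 (-0.13, adjusted p = 0.0180) were lower. Tollip (-0.36), Tifa (-0.41), Ikbkb (-0.18) and Ube2n (-0.16) were the other genes called lower. Peli1 (0.40), Chuk (0.31) and Tab2 (0.13) were the other genes called higher. All but Map3k7, Peli2 and Peli3 were named after their values were seen. With FPKM rescaled to the same sum, 9 genes of this list were called higher and 5 lower, in place of 7 and 8.

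Among 20 other inflammasome genes 10 were tested, 4 higher and 4 lower. Txnip, whose protein is known to bind NLRP3, had the largest change of the list at 5.97 (adjusted p = 9.22e-16 by limma). Nek7, an NLRP3 partner, rose from 22.9 ± 0.822 to 32.3 ± 0.320 FPKM (SD, n = 4 each, log2 fold change 0.49, adjusted p = 4.42e-08), and Ninj1, which ruptures the membrane late in lytic death, fell from 82.0 ± 5.0 to 59.2 ± 1.72 FPKM (-0.47). Other sensors, such as Aim2 and Nlrc4, were below the filter. Of 11 other processing and export genes 8 were tested, 3 higher and 4 lower. S100a13, a carrier in the release of interleukin-1 alpha, rose from 23.7 ± 1.47 to 42.9 ± 2.0 FPKM (SD, n = 4 each, log2 fold change 0.86, adjusted p = 6.43e-09). Ctsg (-0.81) and Erap1 (-0.63), an aminopeptidase tied to receptor shedding, fell.

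Of 26 genes known to be induced by interleukin-1 in fibroblasts 25 were tested, with 18 higher, 5 lower and a median log2 fold change of 0.51. The 3 largest changes were Lif (-0.99, adjusted p = 4.61e-09 by limma), the NF-kB inhibitor gene Nfkbia (0.94, adjusted p = 3.65e-11) and the collagenase gene Mmp13 (-0.90, adjusted p = 5.89e-12). Nfkbia was 89.3 ± 1.61 FPKM in HFHG and 46.4 ± 1.61 in LG, and Mmp13 was 1421 ± 21.5 and 2652 ± 73.9 (SD, n = 4 each). These genes also answer to other NF-kB stimuli, and the share of interleukin-1 in their change was not tested.

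**Figure D5:**
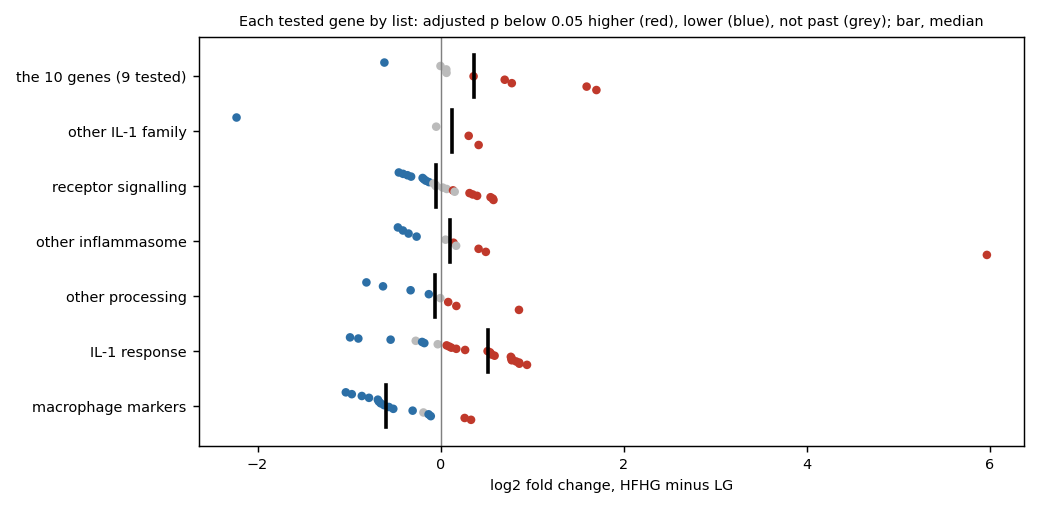
Log2 fold change, HFHG minus LG (horizontal axis), of each tested gene in 7 lists, red where higher and blue where lower at an adjusted p-value below 0.05 and grey otherwise, with a bar at the list's median. The medians lie at 0.36 for the 9 genes, 0.51 for the response genes and -0.59 for the macrophage markers, and the point at 5.97 is Txnip.

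Macrophage transcripts were present in these cultures labelled as tendon stem cells and moved with the media. Of 18 macrophage markers 16 were above the filter, and 13 were lower and 2 higher in HFHG. Over all tested genes 30.8% were lower and 34.0% higher. Adgre1 (F4/80) was 25.3 to 27.9 FPKM in HFHG and 36.7 to 39.3 in LG, while Cd163 and Cx3cr1 stayed near 0. The summed level of the 18 markers was 1865 to 1911 FPKM in HFHG and 2081 to 2172 in LG, of which Lyz2 made up most. Without Lyz2 it was 247 to 250 and 345 to 361 FPKM. The 2 markers that rose were Cd14 (log2 fold change 0.26) and Aif1 (0.33). Aif1 passed narrowly (limma adjusted p = 0.0495), with overlapping FPKM and 31 to 66 reads per library. Of the 10 interleukin-1 genes, Nlrp3 was lower in HFHG, and Il1a, Il1b, Il1r1 and Il1rap were higher. Il18 was higher only narrowly (limma adjusted p = 0.0472), with overlapping groups. The part of cell composition in these results was not tested, and in bulk RNA fewer cells of a type and less RNA per cell cannot be told apart. All 12 tendon and fibroblast markers were above the filter, 10 of them higher in HFHG, where 34.0% of all tested genes were. Scx (log2 fold change 0.61, with overlapping FPKM) and Tnmd (0.86, from 10 to 59 reads per library) were among those higher. Mkx was lower (log2 fold change -0.35), and Dcn was not called. By qPCR the study reported Scx and Tnmd as decreased in HFHG medium and Mkx without significant change. The cause of this difference was not tested.

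Il1b had the largest log2 fold change of the 9 tested genes on log2(FPKM + 0.1), at 1.70 against 1.59 for Il1a. Il1a was ahead with a pseudocount of 1 (1.56 against 0.90), with quantile normalization (1.61 against 1.51) and without HFHG replicate 3 (1.59 against 1.57). The genes whose log2(FPKM + 0.1) followed Il1b most closely over the 8 libraries were Ripk2 (Pearson's r = 0.996), a kinase of NOD receptor signalling, Kctd5 (0.994) and Fam102a (0.993). The 8 points are the same libraries for all genes and fall into 2 groups, so r is high for many genes that differ between the media and is given as a description. Ripk2 had 24.3 ± 0.577 FPKM in HFHG and 19.4 ± 0.652 in LG (SD, n = 4 each).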

How the data were processed

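mRNA of mouse TSCs was measured in 4 HFHG and 4 LG libraries, grouped by their titles. The authors deposited FPKM values per gene and library, not pooled; the submitters' processing notes name HISAT2 2.1.0 and mm10, and the counting program, annotation and filters are not given in the sources used here. Columns of gene annotation were used for gene numbers only.

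Library totals and gene lengths that turn FPKM into whole reads (within 1e-06 of a whole number) were found for 19300 of 19301 genes, and were tested on simulated data. Genes with at least 0.5 FPKM in at least 4 libraries (11710) were fitted with limma 3.58.1 in R 4.3.3 on log2(FPKM + 0.1) with an intensity trend, without covariates, and p-values were adjusted by Benjamini-Hochberg (threshold 0.05). The fit was tested on simulated data. Single values were compared by an exact two-sided permutation test over 70 arrangements. FPKM is relative to each library's total, so abundant genes shift the others. Intervals on reads cover counting error only, as reads were summed over the libraries of a group and the spread between libraries was left out. The study's methods mention no molecular identifiers, so repeated copies of a molecule may be counted.

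The members and lists were chosen with earlier results of these data known. Named genes were all 10 members, the 3 with the largest change at an adjusted p-value below 0.05 in each pathway list (family, signalling, inflammasome, processing, response), and the 3 most correlated with the member of largest log2 fold change in the main limma fit (Il1b); other genes were named after their values were seen. Alternatives were other pseudocounts, filters and scalings, a replicate block, robust eBayes, left-out libraries and, added after seeing the data, voom on the recovered reads. Positions come from GENCODE M21 and RefSeq (GRCm38, the build mm10 names), and promoter windows were found for all 10 members. All 8 FPKM columns were used.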

Additional observations from a re-analysis of the deposited data

Results flagged for a closer look

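Among 26 groups of 4 libraries checked (10 genes and 3 ratios in 2 media), a gap test flagged a library in 2 of them, where chance flags about 1 in 20 groups. Il1b in HFHG was 2.25 FPKM in replicate 3 and 1.50 to 1.60 FPKM in the other replicates. The log2 ratio of Il1rn to Il1b was 3.26 in the same library and 3.79 to 3.83 in the other HFHG replicates. Both flags rest on the same Il1b value, which came from 110 reads against 72 to 81.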

How the results depend on the processing

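Il1a, Il1b, Il1r1, Il1rap and Nlrp3 kept their direction and stayed past the threshold in all other settings in which they were tested. Il18 no longer passed without the filter (log2 fold change 0.36, adjusted p = 0.0941), with median-ratio scaling (0.34, 0.0558), with quantile normalization (0.19, 0.285), with the replicate block (0.36, 0.0597) or with voom on the recovered reads (0.39, 0.148), and left-out libraries gave 0.25 to 0.45. Rescaling to the same sum brought Il1rn past it (0.12), turned Casp1 to 0.055 and left 9 signalling genes called higher and 5 lower. Quantile normalization turned Pycard to -0.039. Left-out libraries gave -0.080 to 0.094 for Casp1, -0.027 to 0.20 for Pycard, -0.20 to 0.16 for the difference in the log2 ratio of Il1r2 to Il1r1, -0.11 to -0.05 for that of Il1rap to Il1r1 and -1.71 to -1.50 for that of Il1rn to Il1b. The difference in the log2 ratio of Il1r2 to Il1r1 moved to -0.45 with a pseudocount of 1 and 0.46 with 0.01. That of Il1rap to Il1r1 moved to 0.058 with a pseudocount of 1 and 0.024 with quantile normalization. That of Il1rn to Il1b moved to -0.84 with a pseudocount of 1, -1.82 with 0.01 and -1.45 with quantile normalization. The cause was not tested. Over all genes, 3606 to 4682 were called higher and 3002 to 4024 lower. Deviations of libraries that share a replicate number correlated at -0.0736 to -0.00558, so the numbers did not pair the libraries, and the replicate block gave 3841 genes higher and 3501 lower. It changed the call of no other member. The minimum of 1 FPKM left Il18 and Nlrp3 untested. Few reads limit Il1r2, Il18, Il1b and Nlrp3.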

Other observations

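Markers of other cell types were read beside the interleukin-1 genes. Of 8 neutrophil markers 2 were above the filter: S100a8 was 30.5 ± 1.71 FPKM in HFHG and 80.4 ± 3.55 in LG (SD, n = 4 each), while its usual partner S100a9 had no read in 7 of 8 libraries, and Camp had a log2 fold change of 0.50. Of 7 keratinocyte markers, the cell type best known for interleukin-1 alpha, only Krt10 was above the filter, at -0.15 on the log2 scale (limma adjusted p = 0.310), and the list summed to 0.787 to 1.19 FPKM in HFHG. Of 6 endothelial markers 2 were above it, Tek (0.47) and Vwf (-1.20).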
